A study of Mus musculus with 32 samples.

Results

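Cytochrome P450 genes of families 1 to 4 were measured in liver cells and tumor cells of a mouse model of colorectal cancer liver metastasis. A probe belonged to the set when the array's own gene name began with Cyp1, Cyp2, Cyp3 or Cyp4, followed at once by a lower-case letter and a number. This gave 99 of the 55681 probes of the array, which stood for 76 of its 34821 gene names: 3 of family 1, 45 of family 2, 8 of family 3 and 20 of family 4. Of these genes, 58 had 1 probe and 18 had 2 or more, and each gene was then described by its probe with the highest variance over all samples. The 32 samples fell into 8 groups of 4. Control endothelial cells, control Ito cells (hepatic stellate cells) and control Kupffer cells (liver macrophages) came from male Balb/c mice, 6 to 8 weeks old, that had received saline into the spleen. The TME groups, named for the tumor microenvironment, were the same 3 cell types from such mice 14 days after C26 colon carcinoma cells had been injected into the spleen. The remaining groups were tumor cells, labelled TM for liver metastasis and TP for primary colorectal cancer, and the sources used here say little of how either was obtained. Liver cells were separated by collagenase digestion and centrifugation, Kupffer cells by adherence, and they were held in culture for up to 24 hours. Levels are log2 of the deposited quantile-normalized intensity, and a difference of 1 on this scale is a 2-fold change.

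Cytochromes P450 are heme enzymes of the endoplasmic reticulum that insert an oxygen atom into their substrates with electrons passed on by the reductase Por. Families 1 to 3 oxidise drugs, toxins and steroids, and family 4 mainly hydroxylates fatty acids and eicosanoids. In liver most of their expression is known from hepatocytes, with several members strongest around the central vein, under nuclear receptors such as Nr1i2 (PXR), Nr1i3 (CAR) and Ppara and the aryl hydrocarbon receptor Ahr. Stellate cells, endothelial cells and macrophages are known for a narrower choice of them, such as Cyp1b1 and Cyp4b1.

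Some arrays and samples went against their labels or stood apart. Each array carried a control sample in the Cy3 channel and the TME sample of the same number in the Cy5 channel, or a TM and a TP sample in the same way, so dye and TME, and dye and TP, cannot be told apart. Over the 17050 probes that were above background in all samples, the TME minus control differences of array 4 correlated with the mean of the other arrays of its cell type at r = -0.66 in Ito cells and r = -0.60 in Kupffer cells. The other Ito arrays gave 0.19 to 0.28 and the other Kupffer arrays 0.41 to 0.47. Control Ito sample 4 resembled TME Ito samples 1 and 3 (r of centred levels 0.86 and 0.70), and TME Ito sample 4 resembled control Ito sample 1 (0.63). Control Kupffer sample 4 resembled TME Kupffer sample 1 (0.62), and TME Kupffer sample 4 resembled control Kupffer sample 1 (0.61). Summed neutrophil markers were 14263 in control Ito sample 4 against 671 to 799 in the other control Ito samples, and 863 in TME Ito sample 4 against 8005 to 13178 in the other TME Ito samples. Whether the samples of these arrays were exchanged was not tested, and the groups were kept as labelled. The counts in these cell types are therefore given with and without array 4. In endothelial cells the 4 arrays gave 0.51 to 0.78, and in the tumors -0.20 to 0.64. Control endothelial samples 1 and 4 lay close together (r = 0.91), as did TME Kupffer samples 1 and 2 (r = 0.81), and the variance of the difference within these pairs was 1.37 and 1.49 times that of spot noise. Next in closeness were control endothelial samples 2 and 3 (r = 0.79, 2.95 times) and TME Kupffer sample 3 with samples 1 and 2 (r = 0.67 and 0.66, 3.32 and 2.59 times). These groups may therefore hold fewer than 4 independent samples, down to 2. As alternatives the closest pairs were averaged to 1 sample each, and then the next closest samples as well. By the ratio to spot noise, TME endothelial samples 1 and 4 came after these (r = 0.69, 3.59 times) and were not averaged. TME Ito sample 2 had a summed intensity of 5 intestinal epithelium markers of 153153, against 4640 to 5165 in the other TME Ito samples. TME endothelial sample 2 stood apart in the same markers (11987, against 2197 to 2310 in the other TME endothelial samples) and in 5 cholangiocyte markers (2004, against 226 to 364). Between 38.4% and 57.1% of the spots of a sample were well above background, which limits what can be said of dim genes. Marker genes of endothelial cells summed to 73172 to 95976 in control endothelial cells and to 23277 to 46566 in the Ito and Kupffer groups. Ito markers were no guide to the Ito fraction, since their sum was 257577 to 333601 in control endothelial cells and 133875 to 285726 in control Ito cells. Kupffer markers summed to 83217 to 547370 in control Kupffer cells and to 25665 to 436835 in the Ito groups. The 15 hepatocyte markers summed to 174827 to 519753 in control Ito cells, 39405 to 47117 in control endothelial cells and 115 to 227 in the tumors.

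The proximal promoters of 6 genes are shown because these genes carry the differences described below. They are the 250 bases before the gene start in RefSeq (GRCm38.p6), a newer build than the mm9 coordinates of the probes. Capitals mark GCGTG (the core that the aryl hydrocarbon receptor recognises), AGGTCA (a nuclear receptor half-site) and TATAAA, or the same motifs read from the other strand (CACGC for the first, TGACCT for the second and TTTATA for the third).
Cyp3a11, chr5:145879855-145880104, minus strand: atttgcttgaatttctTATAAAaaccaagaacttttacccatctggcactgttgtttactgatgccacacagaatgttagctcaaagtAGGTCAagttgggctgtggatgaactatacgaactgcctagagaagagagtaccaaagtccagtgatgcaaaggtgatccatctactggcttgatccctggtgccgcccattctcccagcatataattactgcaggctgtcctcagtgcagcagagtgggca
Cyp3a25, chr5:146009619-146009868, minus strand: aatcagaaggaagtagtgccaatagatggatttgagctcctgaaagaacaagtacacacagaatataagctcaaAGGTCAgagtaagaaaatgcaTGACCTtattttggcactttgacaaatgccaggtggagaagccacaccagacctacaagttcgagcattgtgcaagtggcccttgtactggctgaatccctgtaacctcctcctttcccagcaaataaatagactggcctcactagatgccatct
Cyp3a57, chr5:145345019-145345268, plus strand: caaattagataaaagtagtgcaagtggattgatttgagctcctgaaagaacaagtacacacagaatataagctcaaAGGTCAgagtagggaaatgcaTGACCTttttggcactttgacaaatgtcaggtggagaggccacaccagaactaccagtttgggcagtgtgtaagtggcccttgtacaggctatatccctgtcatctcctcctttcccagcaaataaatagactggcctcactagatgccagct
Cyp3a59, chr5:146079008-146079257, plus strand: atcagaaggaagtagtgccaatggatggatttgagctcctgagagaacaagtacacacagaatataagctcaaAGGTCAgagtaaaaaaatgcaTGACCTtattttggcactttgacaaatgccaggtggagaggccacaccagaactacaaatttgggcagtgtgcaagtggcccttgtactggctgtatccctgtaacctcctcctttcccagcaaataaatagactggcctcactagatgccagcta
Cyp2e1, chr7:140763569-140763818, plus strand: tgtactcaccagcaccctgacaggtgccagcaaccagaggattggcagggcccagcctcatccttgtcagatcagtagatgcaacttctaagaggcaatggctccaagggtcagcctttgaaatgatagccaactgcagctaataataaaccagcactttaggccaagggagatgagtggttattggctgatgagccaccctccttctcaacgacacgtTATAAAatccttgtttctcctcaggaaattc
Cyp1a1, chr9:57697363-57697612, plus strand: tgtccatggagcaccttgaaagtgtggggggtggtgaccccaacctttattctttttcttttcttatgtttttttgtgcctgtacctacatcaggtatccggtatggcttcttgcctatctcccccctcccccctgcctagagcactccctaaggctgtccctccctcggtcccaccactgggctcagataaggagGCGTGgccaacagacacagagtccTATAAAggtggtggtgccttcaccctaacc
The marked letters did not overlap one another. Cyp3a25, Cyp3a57 and Cyp3a59 each had AGGTCA and, 21 bases on, TGACCT, starting 176, 174 and 177 bases before the gene start for the first of them. Cyp3a11 had AGGTCA at 162 and TATAAA at 234 bases before its start. Cyp2e1 had TATAAA at 31 bases, and Cyp1a1 had GCGTG at 54 and TATAAA at 30 bases before the start. The promoters of Cyp3a25 and Cyp3a59 were identical at 95.2% of their 250 bases after alignment, those of Cyp3a57 and Cyp3a59 at 91.2%, and those of Cyp3a25 and Cyp3a57 at 89.6%, whereas Cyp3a11 and Cyp3a25 shared 51.6%. A promoter was matched for 57 of the 76 genes. TATAAA was found in 24 of these 57 and in 14.3% of all 27025 promoters of this length, AGGTCA in 15 and in 15.8%, and GCGTG in 11 and in 30.9%. Among the 19 matched genes that were lower in TME than in control endothelial cells, TATAAA was found in 12, AGGTCA in 4 and GCGTG in 2. Among the 38 others the counts were 12, 11 and 9. A match describes letters and is not a binding site.

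Of the 76 genes, 53 passed the background threshold in every sample of some group with at least 1 of their probes, 12 were above background in some samples but never in a whole group, and 11 were above background in no sample. The last included Cyp2b13, Cyp2w1, Cyp4a32 and Cyp4x1. The number of genes above background on all 4 arrays, by any probe, was 51 in control Ito cells, 47 in TME Ito cells, 48 in control and 36 in TME endothelial cells, 35 in control and 43 in TME Kupffer cells, 13 in TM and 15 in TP. For 51 genes the probe that stands for the gene passed in every sample of some group, and among these the highest group mean lay in an Ito group for 36, control Ito in 29 of them. Control endothelial cells held the highest mean of 5 genes, namely Cyp4b1, Cyp2j6, Cyp2j8, Cyp2j9 and Cyp2j13. TME endothelial cells were highest for Cyp1b1 and Cyp4f16. TME Kupffer cells were highest for Cyp2r1 (a vitamin D 25-hydroxylase), Cyp2t4, Cyp2u1 and Cyp4f18 (a hydroxylase of leukotriene B4 known from neutrophils). Tumor cells were highest for Cyp2c55, Cyp4f13 and Cyp4f17 (TM) and for Cyp2c44 (TP). These orders are descriptions of group means, and neighbouring groups often overlapped.

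**Figure D1:**
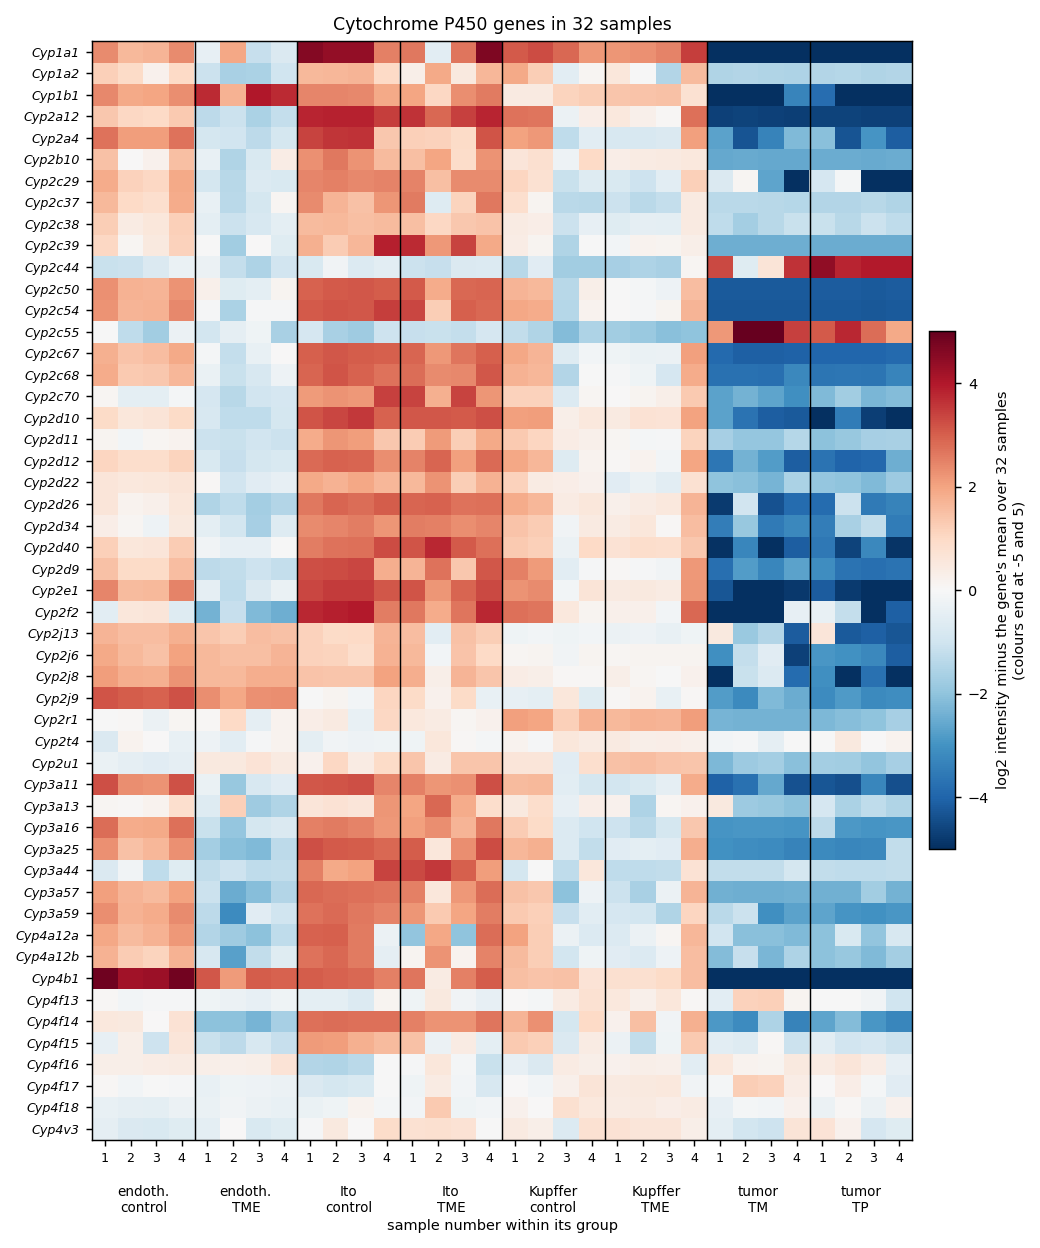
Log2 intensity minus the gene's mean over 32 samples (colour) for the 51 genes whose describing probe was above background throughout some group (rows), with the 4 samples of each of the 8 groups in columns. Most family 2 and 3 genes are red in both Ito groups and blue in the tumors.

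A core of 11 genes had a probe above background in all 32 samples: Cyp2c37, Cyp2c38, Cyp2d11, Cyp2r1, Cyp2t4, Cyp2u1, Cyp4f13, Cyp4f16, Cyp4f17, Cyp4f18 and Cyp4v3. For 9 of them the probe that stands for the gene passed throughout. Another probe of Cyp2c37 was above background in no TME endothelial and no tumor sample. Cyp4f13, a fatty acid omega-hydroxylase, ranged from 7.60 in a TP sample to 9.78 in a TM sample. Cyp4v3, the mouse form of the fatty acid hydroxylase gene of Bietti crystalline dystrophy, ranged from 8.43 to 10.40. The peroxisome proliferator target Cyp4a10 depended on the probe. Its most variable probe, which stands for it in the counts, was above background in 2 of 32 samples, another in 7 and its brightest in 31, at 4.85 to 6.82. The related target Cyp4a14 was above background in 2 TME endothelial samples. Cyp2s1, known from epithelia, reached 3 of 4 samples in TME endothelial and in TME Kupffer cells and never all 4.

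In endothelial cells, 23 of the 76 genes were lower in TME than in control samples and 1 was higher (limma, adjusted p under 0.05). Over all probes of the array 0.564% were lower and 0.578% higher. The genes that fell comprised 6 of 8 Cyp3a genes, 5 of 13 Cyp2c genes, 4 of 10 Cyp2d genes, 2 of 3 Cyp2a genes and Cyp2e1. Cyp4b1, Cyp1a2, Cyp4f14, Cyp4a12a and Cyp4a12b fell as well, and Cyp2u1 rose. No Cyp2b or Cyp2j gene was called. The median difference was -0.47 over the 76 genes, or -0.32 with the 11 genes dark in 1 of the groups at their bounds, and 0.0088 over all probes. In bulk RNA, fewer cells of a type and less RNA per cell cannot be told apart.

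Cyp3a11 is the main mouse counterpart of human CYP3A4, the PXR target that clears many drugs (probe chr5:146666237-146666296, mm9). Its level in control endothelial samples 1 to 4 was 9.90, 9.01, 8.94 and 9.86, and in TME samples 6.34, 4.80, 5.91 and 6.13. Every TME sample lay well below every control sample. The difference was -3.63 (SE 0.57, adjusted p = 0.000441, limma), a 12.4-fold fall, and its other probe gave -2.80 (adjusted p = 0.0119). Cyp3a25, from the same cluster, stood at 7.82, 7.03, 7.22 and 7.84 in control and at 3.86, 3.46, 3.33 and 4.24 in TME samples. The groups did not overlap, and the difference was -3.75 (SE 0.62, adjusted p = 0.00102), a 13.5-fold fall. Cyp3a16, otherwise known from fetal and female liver, had 7.66, 6.73, 6.74 and 7.61 in control and 3.74, 2.93, 3.98 and 4.13 in TME samples, of which 1 was above background. The groups were again fully apart, with a difference of -3.49 (SE 0.50, adjusted p = 0.000142). Cyp3a59 differed by -3.57 (adjusted p = 0.000573) and was above background in 1 TME sample, while its other probe (-0.01, not called) was above background in no sample of any group. Cyp3a57 and Cyp3a41b were above background in no TME sample and Cyp3a41b in 2 of 4 control samples, so that only bounds can be given: they were at least 2.31-fold and at least 1.20-fold lower in TME cells (adjusted p = 0.00126 and 0.00355). The remaining family 3 genes, Cyp3a13 and Cyp3a44, were not called, and Cyp3a44 was dark in both groups. The 7 genes above background in any endothelial sample all had a difference below 0. The median of all 8 was -3.53, or -2.35 with Cyp3a57 and Cyp3a41b at their bounds. The probes of these 8 genes shared little sequence with each other, apart from those of Cyp3a41b and Cyp3a44. The best local alignment of that pair scored 32 of 60 bases, against 10 at most for any other pair. Whether a probe also binds transcripts of the other genes was not tested.

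**Figure D2:**
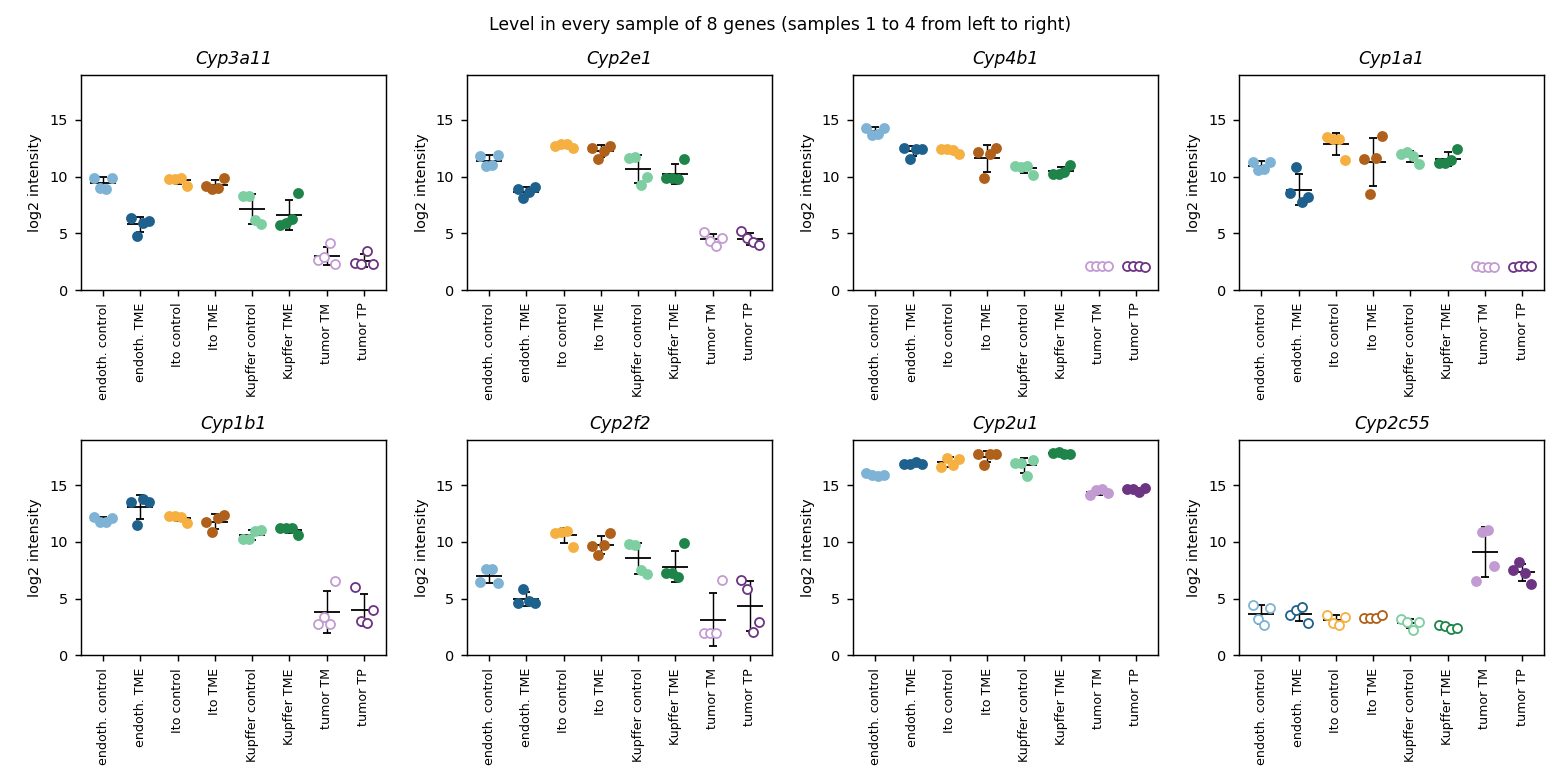
Log2 intensity in every sample for 8 genes, with the 8 groups along each axis; bars give the mean and SD of 4 samples, and open points mark groups not above background on all 4 arrays. Cyp3a11 and Cyp2e1 fall from control to TME endothelial cells with no overlap, Cyp4b1 is highest in control endothelial cells, and Cyp2c55 is above background on all arrays of the tumor groups only.

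In family 2, 12 of 45 genes were lower and 1 was higher. Cyp2e1, which oxidises ethanol and paracetamol in hepatocytes around the central vein (probe chr7:147960628-147960687, mm9), had 11.82, 10.94, 11.00 and 11.87 in control endothelial samples and 8.93, 8.10, 8.64 and 9.06 in TME samples. Every TME sample was lower, by -2.72 on average (SE 0.46, adjusted p = 0.00109) and by -3.01 with the other probe. Cyp2a12, a steroid 7-alpha-hydroxylase, had 8.06, 7.75, 7.74 and 8.05 in control and 5.42, 5.66, 5.12 and 5.52 in TME samples. The groups did not overlap (difference -2.47, SE 0.50, adjusted p = 0.00806). Cyp2a4, a testosterone 15-alpha-hydroxylase, differed by -3.40 (adjusted p = 0.0156), while its other probe gave -2.71 and was not called. Among the Cyp2d genes, which lie together within 416 kb of chromosome 15 (chr15:82204377-82620634, mm9), Cyp2d10 fell by 1.84 (adjusted p = 0.0159), Cyp2d9 by 2.43, Cyp2d11 by 1.11 and Cyp2d22 by 1.05 (adjusted p = 0.0354). Cyp2d26 was not called (difference -1.87, adjusted p = 0.157), with 9.49, 9.09, 9.15 and 9.45 in control and 7.42, 7.64, 7.20 and 7.44 in TME samples. The groups of Cyp2d26 did not overlap. The called Cyp2c genes were Cyp2c54, Cyp2c50, Cyp2c68, Cyp2c67 and Cyp2c38, with differences from -2.46 to -1.55. A second probe of Cyp2c38, above background in no endothelial sample, gave 0.05 and was not called. Cyp2c29, an arachidonic acid epoxygenase, had 9.22, 8.49, 8.40 and 9.25 in control and 6.47, 5.98, 6.69 and 6.58 in TME samples, and was not called (difference -2.41, SE 0.95, adjusted p = 0.388). All 4 TME samples of Cyp2c29 were below all 4 control samples. Cyp2b10, the classic phenobarbital-inducible gene, was at 6.11, 4.66, 4.87 and 6.16 in control and at 4.28, 3.13, 3.89 and 5.01 in TME samples. These groups overlapped, and the gene was not called.

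In family 4, Cyp4b1, which activates furans and fatty acids in lung (probe chr4:115297406-115297465, mm9), had 14.30, 13.67, 13.72 and 14.27 in control endothelial samples and 12.56, 11.59, 12.46 and 12.40 in TME samples. All TME samples were lower (difference -1.74, SE 0.35, adjusted p = 0.00749), and they spanned the range of the control Ito samples, 11.97 to 12.46. Cyp4a12a and Cyp4a12b, male-predominant arachidonic acid hydroxylases, were lower too. Cyp4a12a was above background in no TME endothelial sample and at least 2.07-fold lower (adjusted p = 0.0372), and Cyp4a12b, above background in 1 TME sample, differed by -2.81 (adjusted p = 0.0354). Cyp4f14, a leukotriene B4 hydroxylase, differed by -2.46 (adjusted p = 0.00535). The other 8 Cyp4f genes were not called, and the median of all 9 was 0.04.

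Family 1 was divided. Cyp1a2, which hydroxylates caffeine and aromatic amines, was above background in 3 of 4 control and no TME endothelial samples and at least 1.34-fold lower (adjusted p = 0.0190). Cyp1a1, its inducible neighbour (probe chr9:57551535-57551594, mm9), had 11.30, 10.58, 10.64 and 11.29 in control and 8.54, 10.88, 7.80 and 8.22 in TME samples. TME sample 2 lay within the control range and the other 3 far below it, and the gene was not called. Cyp1b1, which hydroxylates estradiol and is known from stellate and vascular cells (probe chr17:80106547-80106606, mm9), had 12.22, 11.72, 11.79 and 12.14 in control and 13.55, 11.53, 13.83 and 13.53 in TME samples. Again sample 2 was the exception, here below the control samples while the other 3 were above them, and Cyp1b1 was not called (difference 1.14).

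Cyp2u1, a long-chain fatty acid hydroxylase known from brain and thymus, was the single gene that rose. Its bright probe (chr3:130996343-130996402, mm9) gave 16.06, 15.92, 15.82 and 15.92 in control and 16.88, 16.88, 17.07 and 16.83 in TME endothelial samples. The groups did not overlap (difference 0.98, SE 0.24, adjusted p = 0.0343). This probe consists largely of a repeat, with 32 of its 60 bases in an unbroken run of GT, and bases 11 to 40 are shown with the repeat in capitals.
Cyp2u1 probe, bases 11 to 40: tgGTGTGTGTGTGTGTGTGTGTGTGTGTGT
The other 2 probes of Cyp2u1 hold no such run and were not called in any TME comparison. The part of the repeat in the result was not tested.

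The counts differed between lists. Of 8 genes known as pericentral, 7 were on the array, all 7 had a difference below 0 in endothelial cells, and 5 were called (median -2.41). All 3 male-predominant genes were called lower (median -2.81, or -2.43 with Cyp4a12a at its bound), as were 2 of the 5 measured female-predominant genes (median -0.51). These 2 were Cyp2a4 and Cyp3a16. The other female-predominant genes, Cyp2b9, Cyp2b13 and Cyp3a44, were above background in no endothelial sample, so the lists differ in detection too. None of 4 targets of Ppara was called (median 0.11). By the probe that stands for the gene, none of these 4 was above background throughout any group, so this list was hardly measured. Outside the 4 families, none of the 29 measured genes of the wider pathway was called (median -0.05), a list of redox partners, heme synthesis, nuclear receptors and P450 genes of other families. The 15 hepatocyte markers also lay lower: the 13 that were above background in any endothelial sample all had a difference below 0, and 4 were called, namely Hpd at -2.87, Apoa2 at -2.09, Ttr at -1.88 and Apoh at -1.64. The median of all 15 was -0.60, and Alb, the albumin gene, had -0.40 and was not called. The summed hepatocyte markers were 39405 to 47117 in control samples and 19153, 40530, 17796 and 18027 in TME samples 1 to 4. TME sample 2, with a marker sum inside the control range, had Cyp3a11 at 4.80 and Cyp2e1 at 8.10, the lowest TME values of both genes. The 6 neutrophil markers had a median difference of 2.93, with summed intensities of 466 to 803 in control and 3231 to 7340 in TME samples, and 0 of 6 were called, with 4 at an unadjusted p under 0.05. Summed endothelial markers were 73172 to 95976 in control and 46172 to 66185 in TME samples, Ito markers 257577 to 333601 and 152985 to 252397, and Kupffer markers 40326 to 61661 and 67140 to 102945. None of these 3 sums overlapped between control and TME samples. The part of other cell types in the falls was not tested.

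The number of lower probes, 28 of 99, moved when samples were left out or averaged. It was 7 without the samples numbered 1 in all groups, 16 without those numbered 2, 15 without those numbered 3, 16 without those numbered 4, 13 when the closest pairs were averaged and 8 when the next closest samples were averaged too. Over all probes the lower calls were then 0.149%, 0.451%, 0.284%, 0.343%, 0.282% and 0.158%, down from 0.564%. Cyp3a11, Cyp3a16, Cyp3a57, Cyp3a59 and Cyp2e1 kept an adjusted p under 0.05 in each of these fits. Cyp3a25 reached an adjusted p of 0.052 without the samples numbered 1. With the next closest samples averaged, 7 genes were lower, these 6 and Cyp2c38. Cyp4b1 lost the call there and without number 1, 3 or 4, Cyp2a12 there and without number 1 or 3, and Cyp2u1 when any single number was left out.

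In Ito cells no gene of the 76 was called between TME and control samples (limma; at an unadjusted p under 0.05 there were 1 higher and 5 lower, where 5.52% and 4.36% of all probes were), and over all probes 0.269% were higher and 0.0198% lower. Without array 4, 3.69% of all probes were higher and 3.97% lower. Of the 99 probes, 4 were then higher and 4 lower, which is close to these shares of all probes. Cyp1a1 illustrates the turn of that array, with 13.52, 13.33, 13.35 and 11.46 in control samples 1 to 4 and 11.59, 8.43, 11.64 and 13.59 in TME samples. Sample 4 was the lowest control and the highest TME value. With all arrays the difference of Cyp1a1 was -1.60 (adjusted p = 0.448), and without array 4 it was -2.85 (adjusted p = 0.0071). Cyp2a4 (-2.43), Cyp4a12a (-3.53) and Cyp4a32 were also lower without array 4. Cyp4a12a was above background in 2 of the 4 TME Ito samples, and Cyp4a32 in no sample of any group. Cyp2c39 (1.51), Cyp3a44 (1.14), Cyp4f16 (1.57) and a dimmer probe of Cyp2c38 (1.78) were higher in that fit. No gene that was lower in TME endothelial cells was called in Ito cells with all arrays. Cyp3a11 had 9.79, 9.83, 9.92 and 9.14 in control and 9.21, 8.91, 8.97 and 9.91 in TME Ito samples. The groups overlapped, with a difference of -0.42 (SE 0.57). Without array 4 they did not overlap, and the difference was -0.81 (adjusted p = 0.405). Cyp2e1 had 12.73, 12.86, 12.86 and 12.49 in control and 12.50, 11.57, 12.28 and 12.68 in TME samples, also overlapping. Without array 4 the groups of Cyp2e1 did not overlap either, and its difference moved from -0.47 to -0.70 (adjusted p = 0.473). The 15 hepatocyte markers had a median difference of -0.04, or 0.05 without array 4, and none was called in either fit. Their sums were 174827 to 207529 in control samples 1 to 3 and 519753 in sample 4, and 443229, 199003, 431485 and 195454 in TME samples 1 to 4.

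In Kupffer cells Cyp2u1 alone was called, as higher in TME samples, while over all probes 0.372% were higher and 0.0647% lower. Its bright probe gave 16.98, 16.99, 15.79 and 17.22 in control and 17.84, 17.93, 17.79 and 17.75 in TME samples. Every TME sample lay above every control sample, and control sample 3 was the lowest (difference 1.08, SE 0.24, adjusted p = 0.0299). Without control sample 3 and TME Ito sample 2 the difference was 0.77 (adjusted p = 0.018), and without array 4 it was 1.27 (adjusted p = 0.0094). Leaving out the samples numbered 1, 2 or 3, or averaging close samples, ended the call. Cyp3a11 and Cyp2e1 split the Kupffer samples by another line than the labels. Cyp3a11 had 8.29, 8.32, 6.18 and 5.82 in control and 5.77, 5.92, 6.25 and 8.53 in TME samples. Control samples 1 and 2 and TME sample 4 were high and the others low. The difference was -0.54, and without array 4 it was -1.62 (adjusted p = 0.0762). Cyp2e1 had 11.61, 11.75, 9.25 and 10.01 in control and 9.84, 9.85, 9.80 and 11.59 in TME samples. Its difference was -0.39, and -1.04 without array 4 (adjusted p = 0.287). The summed hepatocyte markers were also highest in these samples, at 81578, 77752 and 77215, against 19713 to 48333 in the other 5. Without array 4, Cyp2d11 (-0.92), Cyp2d22 (-1.12) and Cyp3a16 (-1.62) were lower and 1.75% and 2.10% of all probes were higher and lower. Cyp3a16 was above background in 4 of the 8 Kupffer samples.

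**Figure D3:**
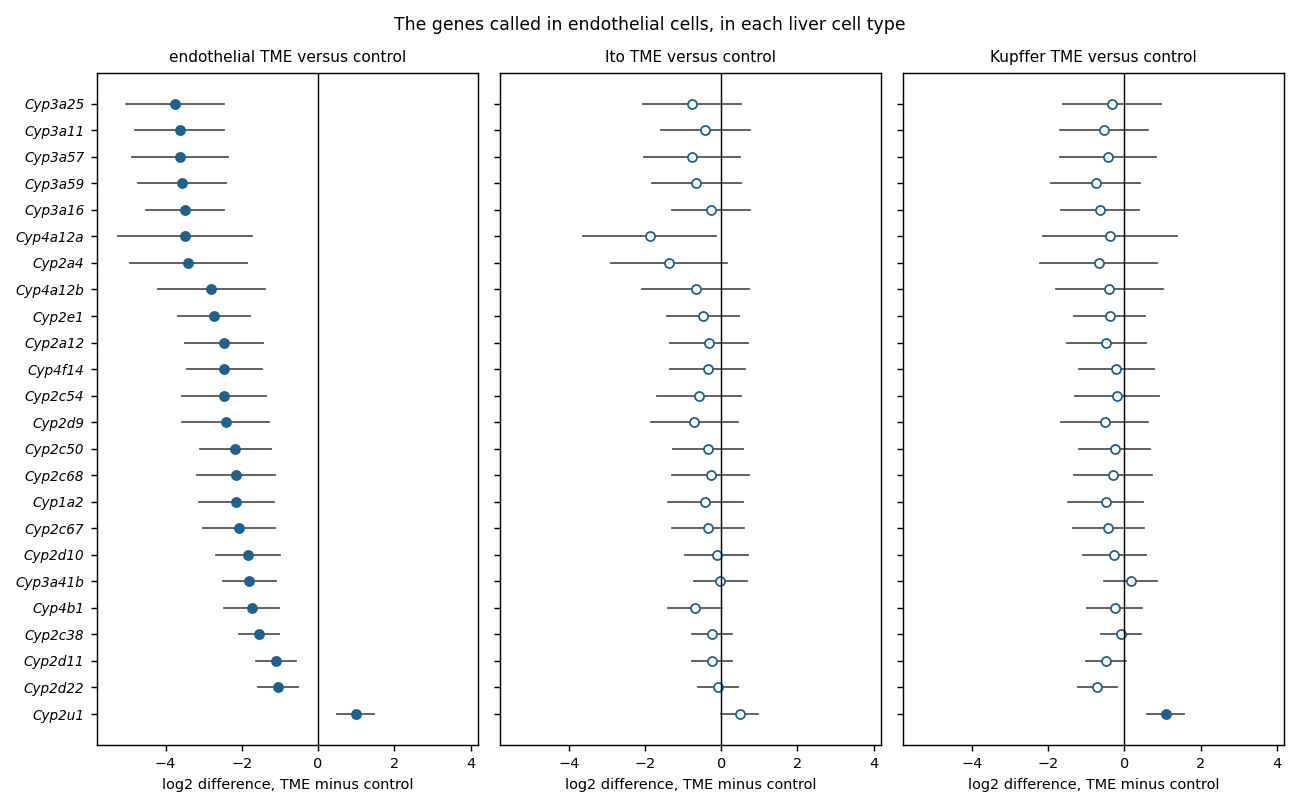
TME minus control difference of log2 intensity with its 95% interval (x axis) for the 24 genes called in endothelial cells (rows), in endothelial, Ito and Kupffer cells; filled points were called at an adjusted p under 0.05. The endothelial differences of 23 genes lie below 0, whereas in Ito and Kupffer cells most intervals include 0 and Cyp2u1 alone is called in Kupffer cells.

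Whether the endothelial change differed from that of the other cells was tested as a difference of differences. No gene of the 76 was called in any of these 3 contrasts (limma), where of all probes 0.0844% were called higher and 0.0269% lower for Ito against endothelial cells, 0.0629% and 0.0180% for Kupffer against endothelial cells, and 0.00180% either way for Kupffer against Ito cells. At an unadjusted p under 0.05, 27 genes had a higher and 0 a lower difference in Ito than in endothelial cells, and 29 and 0 in Kupffer cells. Over all probes these shares were 2.58% higher and 1.87% lower for Ito cells, and 2.09% and 1.79% for Kupffer cells. Cyp3a11 reached 3.22 (SE 0.80, adjusted p = 0.150) and Cyp3a16 3.23 (SE 0.71, adjusted p = 0.0688) for Ito against endothelial cells. Without array 4 of Ito and Kupffer cells, 7 genes were called higher for Ito against endothelial cells, against 0.893% of all probes higher and 0.779% lower: Cyp3a16 (2.99, adjusted p = 0.0072), Cyp3a11 (2.82, adjusted p = 0.0291), Cyp2c39 (2.79), Cyp2j9 (1.58), Cyp4f16 (1.54) and the dim Cyp3a41b and Cyp3a44. In that fit no P450 probe was called for Kupffer against endothelial cells, where 105 of all 55681 probes were higher and 115 lower. These contrasts share the endothelial samples. Other settings moved these counts between 0 and 13 probes.

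Between control Ito and control endothelial cells, 16 genes were higher in Ito cells and 3 lower, against 4.17% and 5.72% of all probes. With samples scaled to their 75th percentile instead, the median difference of all probes moved from 0.0059 to 0.36, and 21 genes were higher and 3 lower, against 8.51% and 4.02% of all probes. Without array 4, 20 genes were higher and 4 lower, against 5.13% and 6.59%. The Cyp2d genes led by number, with 7 of 10 higher and a median difference of 1.79. Cyp2d10 had 10.55, 10.75, 10.94 and 10.37 in control Ito against 8.38, 7.98, 8.05 and 8.37 in control endothelial samples. The groups were far apart (difference 2.46, SE 0.40, adjusted p = 0.000148). The largest difference was that of Cyp2f2, the naphthalene oxidase of lung club cells (probe chr7:27918570-27918629, mm9), with 10.79, 10.91, 11.00 and 9.59 in Ito and 6.49, 7.58, 7.66 and 6.38 in endothelial samples. It did not overlap and was 11.7-fold higher in Ito cells (3.54, SE 0.97, adjusted p = 0.0173). The call was lost when the samples numbered 1, 2 or 3 were left out of all groups, 1 number at a time. Cyp2c70, which makes muricholic acid in mouse bile acid synthesis, was higher by 2.74, Cyp2a12 by 2.57, Cyp2d26 by 2.45 and Cyp4f14 by 2.33. Cyp3a44 was above background on all arrays of control Ito and in no control endothelial sample, and was at least 1.74-fold higher. Cyp3a11 and Cyp2e1 were not called here. Cyp2b10 (1.38), Cyp2u1 (1.10) and Cyp2d22 (1.21) were higher as well. The genes lower in Ito cells were Cyp2j9 (-2.81, SE 0.28, adjusted p = 2.42e-07), Cyp4b1 (-1.70, adjusted p = 0.00171) and Cyp4f16 (-1.44, adjusted p = 0.00344). Cyp2j9 had 5.08, 5.22, 4.94 and 6.18 in Ito and 8.22, 8.10, 8.05 and 8.28 in endothelial samples, with no overlap.

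Hepatocyte markers moved in the same direction in this comparison. Of 15, 12 were higher in control Ito than in control endothelial cells, with a median of 2.33, among them Ahsg at 3.80 and Alb at 3.02. Of the 10 endothelial markers 4 were lower, of the 10 Kupffer markers 5 were higher, and of the 11 Ito markers 3 were lower and none higher. The part of hepatocyte RNA in the P450 differences was not tested. In the wider pathway, Hnf4a, a regulator of hepatocyte genes, was higher by 2.71 in control Ito cells. Cyp7a1, the rate-limiting enzyme of bile acid synthesis, was above background in no control endothelial sample and at least 1.74-fold higher. Ahr (-1.52) and the retinoic acid hydroxylase Cyp26b1 (-3.59) were lower.

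Between the TME samples of the same cell types, 34 genes were higher in Ito cells and 1 lower, against 3.48% and 4.78% of all probes. With 75th percentile scaling the median of all probes was 0.35, and 36 genes were higher and 1 lower, against 7.16% and 3.44%. Without array 4 the counts were 33 and 1, against 3.42% and 5.21%. Every Cyp3a gene (8 of 8 by the probe that stands for it, median 3.49, or 2.96 with the 3 genes dark in TME endothelial cells at their bounds), 8 of 10 Cyp2d genes, 9 of 13 Cyp2c genes, 2 of 3 Cyp2a genes, both Cyp1a genes and all 7 measured pericentral genes were higher in Ito cells. Cyp2f2 differed by 4.79, Cyp2a12 by 4.72, Cyp4f14 by 4.45, Cyp2d26 by 4.30, Cyp2d10 by 4.17 and Cyp3a25 by 4.13. Cyp3a11 differed by 3.45 (SE 0.57, adjusted p = 0.000181) and Cyp2e1 by 3.58 (SE 0.46, adjusted p = 6.61e-06), and neither was called between the control samples of these cell types. Whether the 2 comparisons differ is the difference of differences given above. Cyp3a44 and Cyp3a57, above background in no TME endothelial sample, were at least 2.17-fold and at least 2.56-fold higher. Cyp3a57 was above background in 3 of 4 TME Ito samples. Also dark in TME endothelial cells were Cyp1a2, Cyp3a41b and a probe of Cyp2c37, at least 1.30-fold, 1.28-fold and 1.40-fold higher. They were above background in 2, 1 and 2 of the 4 TME Ito samples. Cyp3a13 rested on its more variable probe, and its brighter probe gave -0.13. The other probe of Cyp3a59, dark in all samples, gave 0.13. The calls of Cyp1a1 and Cyp2c29 were lost when several of the sample numbers were each left out of all groups (adjusted p up to 0.27 and 0.20). Cyp2j9 alone was lower (-1.77, adjusted p = 0.000134). Of the hepatocyte markers 14 of 15 were higher, with a median of 3.41. Both comparisons of cell types share samples with those of TME and control.

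**Figure D4:**
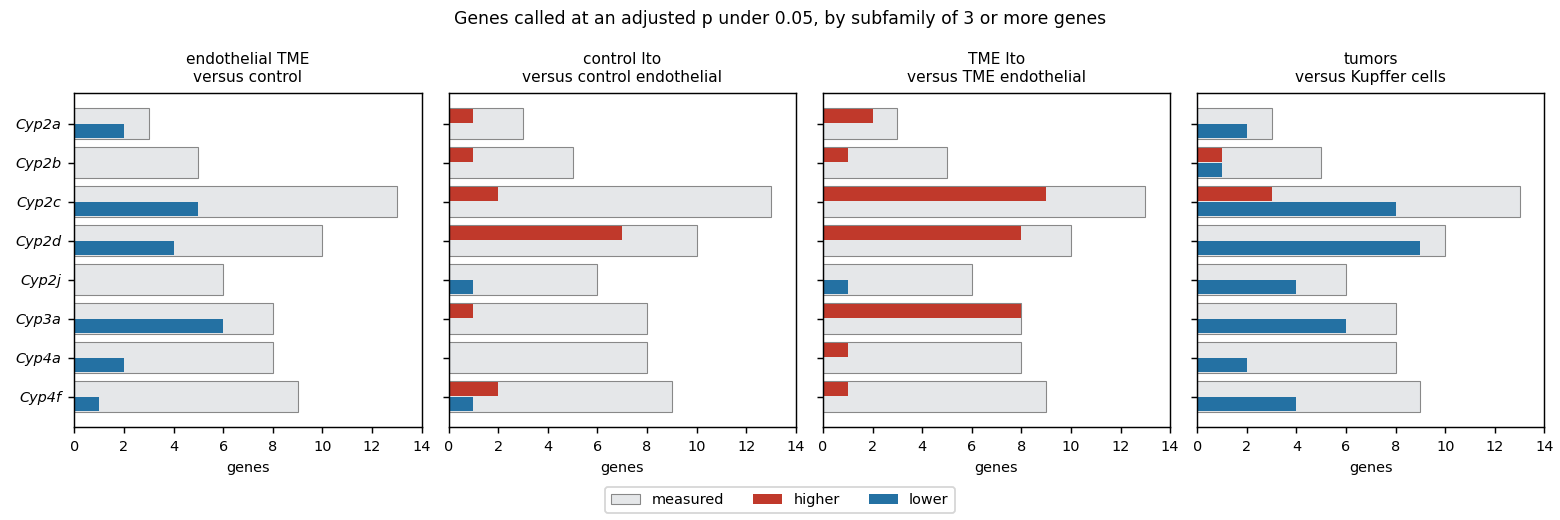
Number of genes called at an adjusted p under 0.05 (x axis) in each subfamily of 3 or more genes (rows), for 4 comparisons; grey bars give the genes measured, red bars those higher and blue bars those lower. In endothelial cells 6 of 8 Cyp3a genes were lower in TME samples, and 8 of 8 were higher in TME Ito than in TME endothelial cells.

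Few of these transcripts were above background in tumor cells. Against Kupffer cells, which shared their slide and had the same balance of dyes, 45 genes were lower and 4 higher, where 20.2% of all probes were lower and 30.8% higher and the median of all probes was 0.109. With each sample scaled to its 75th percentile that median was 0.547, and 11 genes were higher and 43 lower, against 49.1% and 19.2% of all probes. Cyp1a1 lay between 2.05 and 2.12 in all 8 tumor samples, not above background, and between 11.10 and 12.42 in the 8 Kupffer samples. It was at least 40.9-fold lower in the tumors. Cyp4b1 was at least 18.9-fold, Cyp2d10 at least 5.51-fold and Cyp2a12 at least 4.01-fold lower. Cyp1b1 had 2.73, 3.36, 2.73 and 6.53 in TM and 6.02, 3.08, 2.89 and 4.00 in TP samples, against 10.25 to 11.26 in Kupffer samples. The gene was above background in 1 TM and 1 TP sample, and no tumor sample came near the Kupffer range (difference -6.93, SE 0.46, adjusted p = 4.64e-13). All 3 family 1 genes, 9 of 10 Cyp2d, 8 of 13 Cyp2c, 6 of 8 Cyp3a, 4 of 6 Cyp2j, 4 of 9 Cyp4f and 2 of 8 Cyp4a genes were lower. Of the hepatocyte markers 13 of 15 were lower, with a median of -6.06, or -2.28 with the 12 that were dark in all tumor samples at their bounds. All 10 Kupffer and all 10 endothelial markers were lower.

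Cyp2c55, known from mouse colon (probe chr19:39116674-39116733, mm9), was the clearest tumor transcript. It had 6.60, 10.90, 11.02 and 7.87 in TM and 7.51, 8.20, 7.22 and 6.33 in TP samples, and 2.26 to 4.43 in all liver cell samples. All tumor samples were above all others, with a wide spread within TM, and the level was at least 4.83-fold higher than in Kupffer cells, where the gene was not above background (adjusted p = 2.59e-11). Cyp2c44, an epoxygenase above background in 6 of 8 tumor samples, was at least 2.63-fold higher. Cyp2c65 and Cyp2b19 were called higher, but Cyp2c65 was above background in 1 tumor sample and Cyp2b19 in none. In the wider pathway 6 genes were higher, among them Cyp39a1 (6.18), Cyp51 of cholesterol synthesis (3.52) and Cyb5b (2.38), and 13 lower. Among the latter Cyp7b1, Ahrr, Hnf4a and Nr1h4 were above background in no tumor sample, and they were at least 10.5-fold, 2.83-fold, 2.19-fold and 2.29-fold lower.

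Between TP and TM, Cyp2c44 was the single gene called, higher in TP, while 2.05% of all probes were higher and 0.961% lower. It had 8.35, 7.71, 7.90 and 7.90 in TP and 7.24, 3.32, 4.55 and 7.53 in TM samples. TP samples were all higher, and TM samples 2 and 3 were far lower than the other TM samples (difference 2.30, SE 0.59, adjusted p = 0.0284). The call was lost when the samples numbered 2 or those numbered 3 were left out of all groups, and in a fit of TP and TM alone (adjusted p = 0.47). Second probes of 2 genes were above background on all TP and no TM arrays, that of Cyp2c67 (chr19:39683429-39683488) at least 1.47-fold and that of Cyp2j13 (chr4:95723493-95723552) at least 1.75-fold higher in TP, whereas the probes standing for these genes were not called. Cyp2c55 overlapped between TP and TM.

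**Figure D5:**
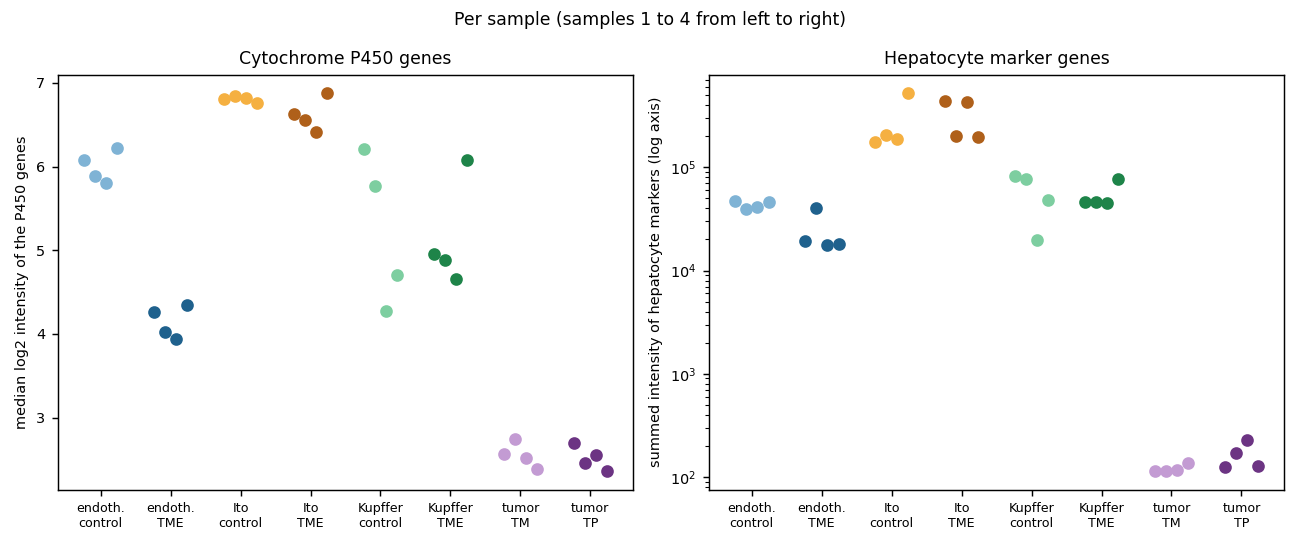
Median log2 intensity of the 76 P450 genes (left) and summed intensity of the 15 hepatocyte markers on a log axis (right) in each of the 32 samples, by group. Both measures are highest in Ito cells and lowest in tumors, and in TME endothelial sample 2 the marker sum of 40530 is in the control range while the P450 median is not.

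Probes of the same gene did not always move alike. Of the 18 genes with 2 or more probes, the endothelial TME comparison called 4 by all probes and 4 by some, and the tumor comparison 7 by all and 9 by some. Cyp2u1 was lower in tumors by its bright probe (-2.78) and higher by a probe of ordinary brightness (1.14, adjusted p = 1.71e-07). Cyp2r1 was at least 1.74-fold lower in the tumors by its more variable probe, but its brighter probe had 9.17 to 10.16 in TM samples and 8.97 to 9.71 in TME Kupffer samples. Cross-hybridisation between related members of the Cyp2c, Cyp2d and Cyp3a clusters was not tested.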

How the data were processed

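RNA of 32 samples had been hybridised to 16 two-channel Agilent mouse arrays on 2 slides, each channel holding 1 sample, and read with Feature Extraction 10.7.3.1. The deposited table holds linear intensity per probe and sample, quantile-normalized by the authors, and log2 of it was used here. No table column belonged to another sample. Above background was taken from the deposited scanner flags (at least 0.5 of a probe's spots). Main fits used limma 3.58.1 in R 4.3.3 (lmFit, eBayes), all samples, 8 groups, with Benjamini-Hochberg adjustment over 55681 probes and calls made below an adjusted p of 0.05, whatever the fold. The script was tested on simulated data. A probe dark on all arrays of a group has a bound ("at least"), its brighter mean over the dimmest signal well above background.

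The methods describe 4 biological replicates; nothing ties them to single animals, so p-values measure the spread between samples. Named are the 24 genes of a fixed list and, per comparison, up to 6 of the largest called rises and falls measured on all arrays of the higher side. A few dimmer genes were named after their values were seen. Members and lists were chosen with earlier results of these data known.

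Alternatives were the scanner's processed signal, normexp (offset 50) with quantile or loess normalization, 75th percentile scaling, a filter on dim probes, a stricter threshold, the methods' t-test, fits of the compared groups alone, a replicate block, the brightest probe of a gene and leaving out samples. Leaving out array 4 of Ito and Kupffer cells, leaving out TME Ito 2 with control Kupffer 3, and averaging close samples in 2 steps were added after seeing the data.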

Additional observations from a re-analysis of the deposited data

Results flagged for a closer look

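In 36 of 209 groups of 4 samples, the sample farthest from the others lay beyond Dixon's 95% critical ratio, where chance gives about 1 in 20. The groups are those of 35 named genes, and all values are log2 intensities. Control Ito sample 4 accounted for 10 of them. It was low for Cyp1a1 (11.46, others 13.33 to 13.52), Cyp1a2 (4.62), Cyp1b1 (11.70), Cyp2a12 (10.19), Cyp2f2 (9.59), Cyp3a11 (9.14) and Cyp4a12a (3.85), and high for Cyp2c70 (11.00), Cyp3a13 (6.72) and Cyp4f16 (7.95). TME Kupffer sample 4 accounted for 8. It was high for Cyp2a12 (9.46), Cyp2d22 (5.91), Cyp2e1 (11.59, others 9.80 to 9.85), Cyp2f2 (9.90), Cyp3a25 (7.38) and Cyp3a44 (3.88), and low for Cyp1b1 (10.59) and Cyp4f16 (7.46). TME endothelial sample 2 was low for Cyp1b1 (11.53), Cyp2j9 (7.02) and Cyp4b1 (11.59), and TME endothelial sample 4 was high for Cyp4f16 (8.68). TME Ito sample 2 was low for Cyp2c29 (8.88) and Cyp2u1 (16.80) and high for Cyp4f18 (8.33), and TME Ito sample 4 was high for Cyp2d10 (10.63) and low for Cyp4v3 (9.45). Control Kupffer sample 3 was low for Cyp2j6 (7.35) and Cyp2u1 (15.79) and high for Cyp2j9 (5.67), and control Kupffer sample 4 was low for Cyp4b1 (10.15). TM sample 4 was high for Cyp1b1 (6.53) and Cyp2f2 (6.63). Control endothelial sample 4 was high for Cyp3a13 (5.35), control Ito sample 2 for Cyp4f14 (8.45), and TME Kupffer sample 2 was low for Cyp3a13 (2.98).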

How the results depend on the processing

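Of the 78 called results of named genes, 1108 of 1222 values under alternatives kept direction and call, 112 kept the direction and lost the call, and 2 reversed, both with the brightest probe of the gene: Cyp3a13 in TME Ito against TME endothelial cells (-0.13) and Cyp2r1 in tumors (0.22). The cause was not tested here or below. Counts of the 99 probes moved as follows. For TME against control endothelial cells, 1 probe was higher, but 0 with 75th percentile scaling, averaged close samples (the closest pairs, or the next closest too), the strict threshold (adjusted p under 0.001 and 4-fold) or any number left out (0 to 0), and 2 without array 4 of Ito and Kupffer cells. The 28 lower probes became 36 with the compared groups alone, 35 with normexp and loess and 33 without TME Ito 2 and control Kupffer 3. They became 13 with the closest pairs and 8 with the next closest samples averaged, 4 with the strict threshold and 7 to 16 with a number left out. In Ito cells, 0 higher and 0 lower became 4 and 4 without array 4, 1 higher without TME Ito 2 and control Kupffer 3, and 0 to 3 higher and 0 to 4 lower with a number left out. In Kupffer cells, 1 higher became 0 with the processed signal, the compared groups alone, averaged close samples, the methods' t-test or the strict threshold, 2 without array 4 and 0 to 2 with a number left out, and 0 lower became 3 and 0 to 2. TP against TM had 0 lower, 1 with the replicate block and 0 to 3 with a number left out. Control Ito against control endothelial cells had 17 higher, 28 with the compared groups alone, 28 without TME Ito 2 and control Kupffer 3, 11 with the next closest samples averaged, 5 with the strict threshold and 11 to 20 with a number left out, and 3 lower, 5 without array 4 and 1 with the strict threshold. TME Ito against TME endothelial cells had 1 lower, 2 with either normexp setting or without array 4, 0 with the strict threshold and 1 to 2 with a number left out. The tumors had 6 higher, 15 with 75th percentile scaling and 2 with the strict threshold. The Ito minus endothelial effect had 0 higher, 1 with normexp and quantile, 75th percentile scaling or the filter, 5 with normexp and loess, 13 with the compared groups alone, 7 without array 4, 2 without TME Ito 2 and control Kupffer 3 and 0 to 3 with a number left out. The Kupffer minus endothelial effect had 0 higher, 1 with normexp and quantile or without TME Ito 2 and control Kupffer 3, and 6 with normexp and loess. The array shared by equal numbers, as a replicate block (correlation 0.078), gave 31 lower probes for TME against control endothelial cells and changed no call of a named gene. Equal numbers share an array, and their deviations correlated at 0.40, 0.34, 0.04 and 0.19 in endothelial cells and at -0.64 to 0.23 in the other pairs of groups. The numbers were not taken to pair the samples, since not every pair exceeded 0.1. Brightness over background limits the 23 genes with no probe above it in a whole group.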
